A study of Mus musculus with 31 samples.

Results

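The 33 T cell genes described here are a list given by symbol: the chains of the T cell receptor complex and its coreceptors, the kinases and adaptors that carry its signal, and the transcription factors and surface receptors by which T cells are usually recognised. They were listed for what is known of them and not by a rule on expression, though with earlier results of these data known. All 33 were matched to an Ensembl gene, out of 29120 gene IDs with a count in any of 31 RNA-seq libraries. They were followed in whole spleens of C57BL/6 mice aged 12 weeks, 10 wild-type and 9 Gpr34-/-, and in 12 libraries of dendritic cells grown for 10 days from bone marrow of male mice aged 8 to 16 weeks with medium of a GM-CSF secreting line. The cultures form 4 groups of 3: naive wild-type, naive labelled Gpr34-/-, and wild-type and labelled Gpr34-/- that received LPS, a component of bacterial cell walls, on day 11 for 8 h. All groups share the C57BL/6 strain. Gpr34 encodes a G protein-coupled receptor for lysophosphatidylserine, and the labels name neither the allele nor the animal behind a library, so a p-value here sets a difference against the spread among libraries only, and that spread may in part be technical.

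T cells recognise antigen through a receptor whose variable chains sit in a complex with the CD3 chains. CD4 or CD8 binds the antigen-presenting molecule and brings the kinase LCK to the complex, which then recruits ZAP70 and the adaptor LAT. Spleen holds T cells in the sheaths around its small arteries, beside B cell follicles and a red pulp rich in red blood cells and macrophages, so in whole spleen these genes are read from a mixed organ. In such bulk RNA, fewer T cells and less RNA of a gene per T cell cannot be told apart. Dendritic cells present antigen to T cells and carry no T cell receptor, which makes their cultures the reference for what is left of these genes without T cells.

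Total counts ranged from 38998746 to 74164853 in dendritic cells and from 56834377 to 133277070 in spleens. Gpr34 itself had 308 to 986 counts in wild-type and 42 to 156 counts in knockout spleens. In the cultures, 3 of the 6 libraries labelled knockout held over 100 Gpr34 counts (naive replicate 3 with 120, LPS replicate 3 with 117 and LPS replicate 4 with 104). Wild-type cultures had 199 to 324 when naive and 65 to 125 after LPS. Naive replicate 3 thus lay below its own control group, though its total of 74164853 was the highest of the cultures. The 6 are therefore called libraries labelled knockout. Knockout spleens 4 and 6 stood apart in several marker lists, whose values are given beside the T cell genes below. Knockout spleen 9 stood apart in single T cell genes and had the highest sums over 8 dendritic cell markers (19889 CPM, at most 14651 in wild-type) and 8 ribosomal protein genes (10553 CPM, at most 7432 in wild-type), whose part in its T cell values was not tested.

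Levels below are in CPM, a gene's count relative to its library's total on the usual CPM scale, adjusted by trimmed-mean (TMM) factors within a tissue unless plain CPM is named. They are per gene and not per transcript length, so they are compared between libraries and not between genes. A gene was called when its adjusted p in edgeR's quasi-likelihood test over all genes was under 0.05. Gene places are those of GRCm38.

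Bases upstream of a start site were on hand for 22 of the 33 genes (RefSeq, GRCm38.p6), and 250 bases before the start are printed for genes on which the results below turn. Cd3d and Cd3g are neighbours that start back to back on chromosome 9, and Lck is the member with the largest called rise in LPS-treated dendritic cells. Il7r is the member with the lowest spleen fold change. It is also the one whose median was higher in cultures than in spleens when genotypes were pooled. Lck has 2 start sites in the table. Capitals mark AGGAAG, a core bound by ETS family factors, and TGTGGT, a core bound by RUNX factors, on either strand, each run being read 5′ to 3′ along its gene.
Cd3d (chr9:44981536-44981785, plus strand): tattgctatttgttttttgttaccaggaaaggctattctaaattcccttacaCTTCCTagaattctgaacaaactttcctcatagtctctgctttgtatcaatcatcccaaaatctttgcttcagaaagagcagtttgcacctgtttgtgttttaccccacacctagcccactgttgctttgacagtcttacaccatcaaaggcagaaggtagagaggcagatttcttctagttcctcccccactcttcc
Cd3g (chr9:44980432-44980681, minus strand): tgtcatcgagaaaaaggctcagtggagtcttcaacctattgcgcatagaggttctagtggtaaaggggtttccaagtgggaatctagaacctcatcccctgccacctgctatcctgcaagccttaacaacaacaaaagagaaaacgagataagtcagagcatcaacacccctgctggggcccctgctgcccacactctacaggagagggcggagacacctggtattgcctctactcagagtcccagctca
Lck, upstream start (chr4:129573642-129573891, minus strand): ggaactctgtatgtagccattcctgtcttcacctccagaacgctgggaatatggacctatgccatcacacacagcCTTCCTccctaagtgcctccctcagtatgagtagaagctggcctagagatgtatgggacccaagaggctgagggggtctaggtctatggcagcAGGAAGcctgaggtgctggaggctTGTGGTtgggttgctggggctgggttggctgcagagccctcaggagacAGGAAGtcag
Lck, downstream start (chr4:129558373-129558622, minus strand): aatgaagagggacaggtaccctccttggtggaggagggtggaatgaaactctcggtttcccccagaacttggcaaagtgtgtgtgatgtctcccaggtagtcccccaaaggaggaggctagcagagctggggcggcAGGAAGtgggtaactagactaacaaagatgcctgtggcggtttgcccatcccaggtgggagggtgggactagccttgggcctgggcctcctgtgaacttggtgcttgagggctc
Il7r (chr15:9529877-9530126, minus strand): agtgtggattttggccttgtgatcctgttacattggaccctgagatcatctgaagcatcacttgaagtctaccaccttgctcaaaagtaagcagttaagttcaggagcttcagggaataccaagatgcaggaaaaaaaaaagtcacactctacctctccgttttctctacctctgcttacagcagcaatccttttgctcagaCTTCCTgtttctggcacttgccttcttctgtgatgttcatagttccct

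The upstream Lck window held AGGAAG 3 times and TGTGGT 1 time, and the downstream Lck window held AGGAAG 1 time. The Cd3d and Il7r windows held AGGAAG 1 time each. The Cd3g window held neither. AGGAAG on either strand was in 10 of the 22 windows (45.5%), against 29.2% of 27025 windows of the same length. The other motifs searched on both strands were TGTGGT in 2 windows (9.09% against 14.2% of all), CTTTGA in 4 (18.2% against 14.1%), AGATAA in 1 (4.55% against 10.3%), TATAAA in 2 (9.09% against 13.0%) and CAGCTG in 1 (4.55% against 12.8%). None of the 6 motifs lies within another, though matches to different motifs may share end bases. These counts describe letters only.

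The first comparison asked whether the T cell genes differed between spleens of the 2 genotypes. None of the 33 genes passed the test, while over all 20371 genes tested 0.177% passed (0.0982% higher and 0.0785% lower in the knockout). All 33 members were tested, so the filter on low counts removed none. An unadjusted p under 0.05 was seen for 8 members (24.2%), against 17.4% of all genes, and the fitted log2 fold changes ran from -0.62 to 0.35. Their median was -0.06, with 10 positive and 23 negative, beside a median of 0.01 over all genes. For every member the ranges of wild-type and knockout spleens overlapped. Overlap was not counted over all genes, so it is not read as a trait of this list. DESeq2 called 2 members, Il7r and Trat1, both lower in the knockout, among 442 genes higher and 431 lower in that fit.

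**Figure D1:**
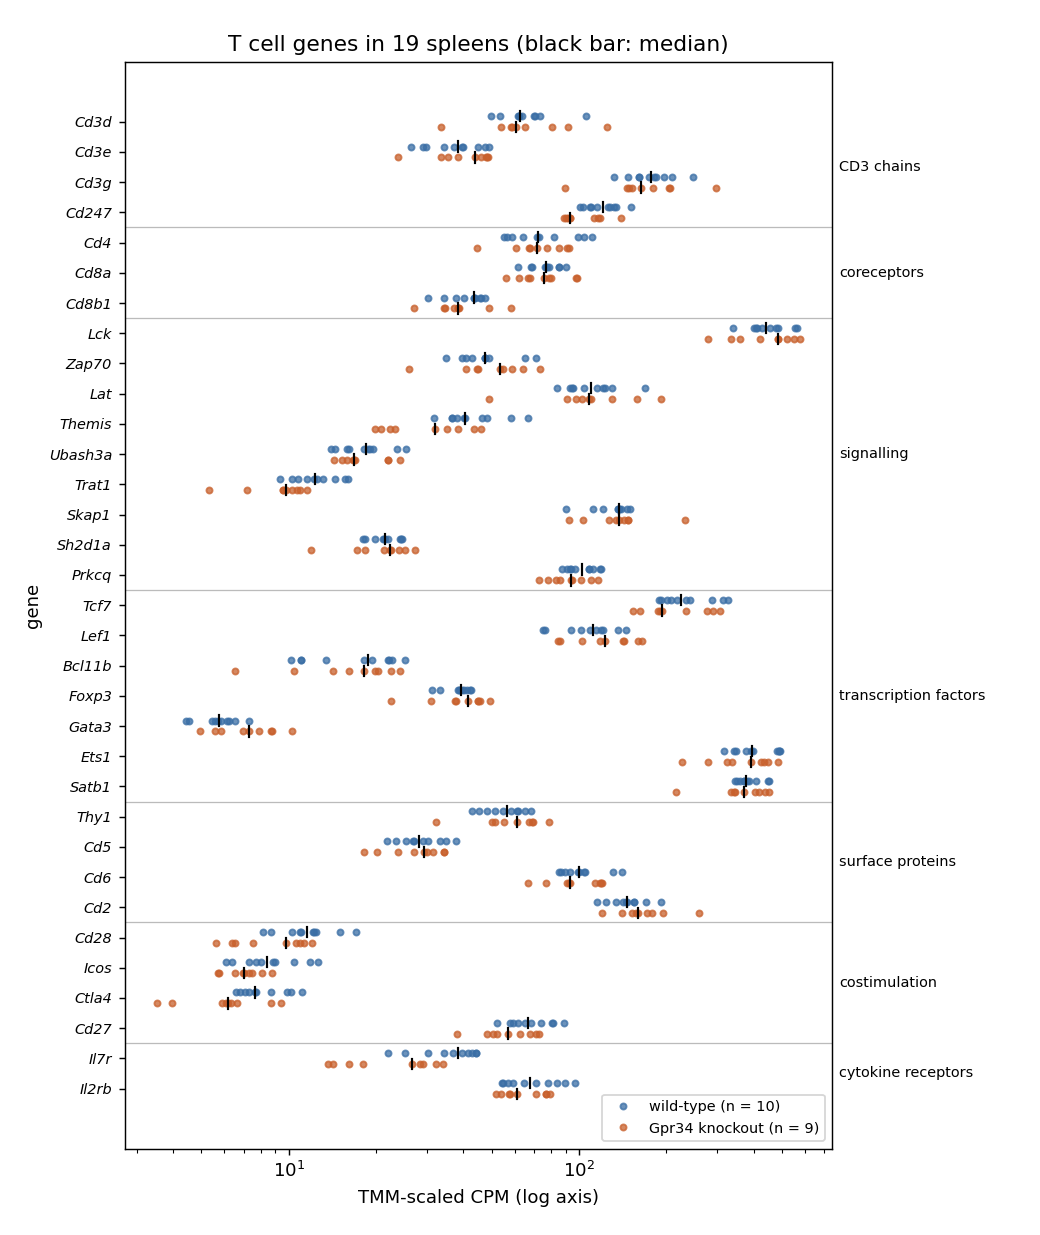
Level of each T cell gene in each spleen, in TMM-scaled CPM on a log axis, ordered by role; blue points are the 10 wild-type and orange points the 9 knockout spleens, and black bars are group medians. The 2 genotypes overlap in every row, and in the Il7r and Trat1 rows all 9 knockout spleens lie below the wild-type median.

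The CD3 chains anchor the receptor and carry the motifs that LCK phosphorylates. Cd3e (chromosome 9, 44998740 to 45009627) had a lowest, median and highest level of 26.3, 38.2 and 49.0 CPM in wild-type spleens and 23.8, 43.7 and 48.5 CPM in knockout spleens. The knockout range lay within the wild-type one but for its lowest spleen, knockout 6. The log2 fold change was 0.11 (SE 0.14, 95% interval -0.18 to 0.40, adjusted p = 0.713). Cd3d had 49.6, 62.9 and 106 CPM in wild-type and 33.5, 60.8 and 125 CPM in knockout spleens, with a log2 fold change of 0.05 (SE 0.18). Cd3g had 132, 178 and 247 CPM in wild-type and 89.6, 163 and 296 CPM in knockout spleens, with a log2 fold change of -0.02 (SE 0.16). Both genes were lowest in knockout spleen 6 and highest in knockout spleen 9, so the knockout range was wider than the wild-type one on both sides.

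Cd247, which encodes the zeta chain with most of the complex's signalling motifs, had 101, 121 and 151 CPM in wild-type and 88.7, 93.5 and 140 CPM in knockout spleens. Of the 9 knockout spleens 8 lay below the wild-type median and 5 below the lowest wild-type spleen. The log2 fold change of -0.21 (SE 0.10, adjusted p = 0.279) did not pass. Of the exonic bases of Cd247, 56.4% are shared with Pou2f1, a transcription factor gene on the opposite strand. The sources used here do not give whether counting used strand. Reads from the shared bases therefore cannot be told apart, and Pou2f1 had a fold change of -0.47 on the log2 scale (SE 0.15, adjusted p = 0.134) in the same comparison.

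Cd4 (chromosome 6, 124864692 to 124888221), the coreceptor of helper T cells, had 55.3, 72.3 and 111 CPM in wild-type and 44.6, 71.6 and 92.3 CPM in knockout spleens. Its log2 fold change was -0.08 (SE 0.15, 95% interval -0.41 to 0.24, adjusted p = 0.799), and it was lowest in knockout spleen 4. Cd8a (chromosome 6, 71373427 to 71379173), which encodes the alpha chain of the coreceptor of cytotoxic T cells, had 61.6, 77.3 and 89.9 CPM in wild-type and 56.0, 75.8 and 98.2 CPM in knockout spleens. The log2 fold change of Cd8a was -0.02 (SE 0.10, 95% interval -0.23 to 0.19, adjusted p = 0.940). Its 9 knockout spleens fell on both sides of the wild-type range, 1 below it and 2 above it. Cd8b1, the beta chain gene of the same coreceptor, had a log2 fold change of -0.06 (SE 0.12).

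The ratio of Cd4 to Cd8a levels had a median of 0.993 in wild-type spleens (0.712 to 1.303) and 0.994 in knockout spleens (0.617 to 1.22). The mean log2 ratio differed by -0.04 (knockout minus wild-type), and the 2-sided exact permutation test over all 92378 splits gave p = 0.795 (n = 10 and 9, adjusted p = 0.795 over 2 ratios). The ratio of Foxp3 to Cd4 sets the gene of the regulatory T cell factor against that of the helper T cell coreceptor. Foxp3 also had 171 to 593 counts in each dendritic cell culture, so its reads need not all come from regulatory T cells. This ratio had a median of 0.510 in wild-type (0.362 to 0.748) and 0.503 in knockout spleens (0.314 to 0.840). Its log2 difference was 0.07 (exact permutation p = 0.707, n = 10 and 9, adjusted p = 0.795). Both ratios spread more widely among spleens of 1 genotype than they differed between genotypes. Without knockout spleens 4, 6 and 9 the log2 difference of the Cd4 to Cd8a ratio was 0.07.

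Lck, the kinase that starts the receptor's signal, had 339, 442 and 563 CPM in wild-type and 278, 484 and 577 CPM in knockout spleens, with a log2 fold change of -0.02 (SE 0.13). Zap70 and Lat, the kinase and the adaptor that follow it, had log2 fold changes of 0.08 (SE 0.16) and 0.03 (SE 0.18). Among the other signalling members, Skap1, an adaptor in integrin activation, was at 0.10 (SE 0.13). Prkcq, the protein kinase C theta gene, was at -0.15 (SE 0.09), Ubash3a at -0.02 (SE 0.13) and Sh2d1a, the gene of the adaptor SAP, at -0.03 (SE 0.12). None of these 7 had an unadjusted p under 0.05.

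The remaining 2 signalling members stood lower in the knockout without passing. Themis, which tunes receptor signals during thymic selection, had 31.6, 40.4 and 66.8 CPM in wild-type and 19.9, 31.8 and 46.0 CPM in knockout spleens. Of the 9 knockout spleens 4 lay below the whole wild-type range, and the log2 fold change was -0.51 (SE 0.18, adjusted p = 0.162). Trat1, which encodes an adaptor bound to the receptor complex, had 9.35, 12.4 and 16.0 CPM in wild-type and 5.32, 9.80 and 11.5 CPM in knockout spleens. All 9 knockout spleens lay below the wild-type median, and the log2 fold change was -0.42 (SE 0.13, adjusted p = 0.135).

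Foxp3 (chromosome X, 7573644 to 7595245), the lineage factor of regulatory T cells, had 31.04, 39.3 and 42.5 CPM in wild-type and 22.5, 41.5 and 49.3 CPM in knockout spleens. The wild-type spleens were close together (coefficient of variation 9.61%) and the knockout spleens less so (21.4%), with 4 of them above the wild-type range and 2 below it. The log2 fold change was 0.03 (SE 0.11, 95% interval -0.21 to 0.27, adjusted p = 0.907). Foxp3 shares 12.9% of its exonic bases with Ccdc22 and 5.81% with Ppp1r3f, both on the opposite strand. In the same comparison Ccdc22 was at 0.22 (SE 0.13) and Ppp1r3f at 0.03 (SE 0.09), and their part in the Foxp3 value was not tested. Gata3, the lineage factor of type 2 helper T cells, had 4.43, 5.77 and 7.30 CPM in wild-type and 4.94, 7.29 and 10.2 CPM in knockout spleens. Of the knockout spleens 4 lay above the wild-type range, and the log2 fold change of 0.35 (SE 0.13, adjusted p = 0.193) did not pass. Gata3 was called higher (0.47, adjusted p = 0.0353) in 1 of the alternatives run, the fit from which the GC content and length trends of single libraries were removed, which called 918 genes higher and 80 lower over all.

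The other transcription factors of the list had log2 fold changes between -0.15 and 0.19. They were Tcf7 at -0.12 (SE 0.14) and Lef1 at 0.19 (SE 0.15), the T cell effectors of WNT signalling, Bcl11b, which fixes T cell identity, at -0.05 (SE 0.23), Ets1 at -0.15 (SE 0.13) and the chromatin organiser Satb1 at -0.07 (SE 0.10). The surface protein genes lay between -0.07 and 0.20: Thy1 at 0.09 (SE 0.13), Cd5 at -0.07 (SE 0.13) and Cd6 at -0.06 (SE 0.12), both of which dampen receptor signals, and the adhesion receptor gene Cd2 at 0.20 (SE 0.12).

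All 4 costimulation genes had negative log2 fold changes, and none passed. Cd28, the main costimulatory receptor of naive T cells, had 8.12, 11.6 and 17.1 CPM in wild-type and 5.61, 9.79 and 12.0 CPM in knockout spleens, at -0.39 (SE 0.16, adjusted p = 0.227). Ctla4, its inhibitory relative, had 6.59, 7.67 and 11.1 CPM in wild-type and 3.51, 6.19 and 9.39 CPM in knockout spleens, at -0.40 (SE 0.16, adjusted p = 0.226). Of the knockout spleens 6 lay below the whole wild-type range of Ctla4 and 4 below that of Cd28. Icos, an inducible relative of Cd28 on follicular helper T cells, was at -0.32 (SE 0.14, adjusted p = 0.238), and Cd27, a costimulatory receptor of the TNF receptor family, was at -0.25 (SE 0.12, adjusted p = 0.288).

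Il7r, the receptor chain through which naive T cells receive the survival signal of IL-7, had the lowest fitted fold change of the list. It had 22.04, 38.2 and 44.2 CPM in wild-type and 13.6, 26.6 and 34.03 CPM in knockout spleens. All 9 knockout spleens lay below the wild-type median and 4 (replicates 3, 4, 8 and 9) below the whole wild-type range. The log2 fold change was -0.62 (SE 0.19, 95% interval -1.01 to -0.22, adjusted p = 0.118). DESeq2 gave -0.61 for Il7r (adjusted p = 0.0315) and -0.42 for Trat1 (adjusted p = 0.0448). Il2rb, the beta chain shared by the receptors of IL-2 and IL-15, was at -0.12 (SE 0.12).

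**Figure D2:**
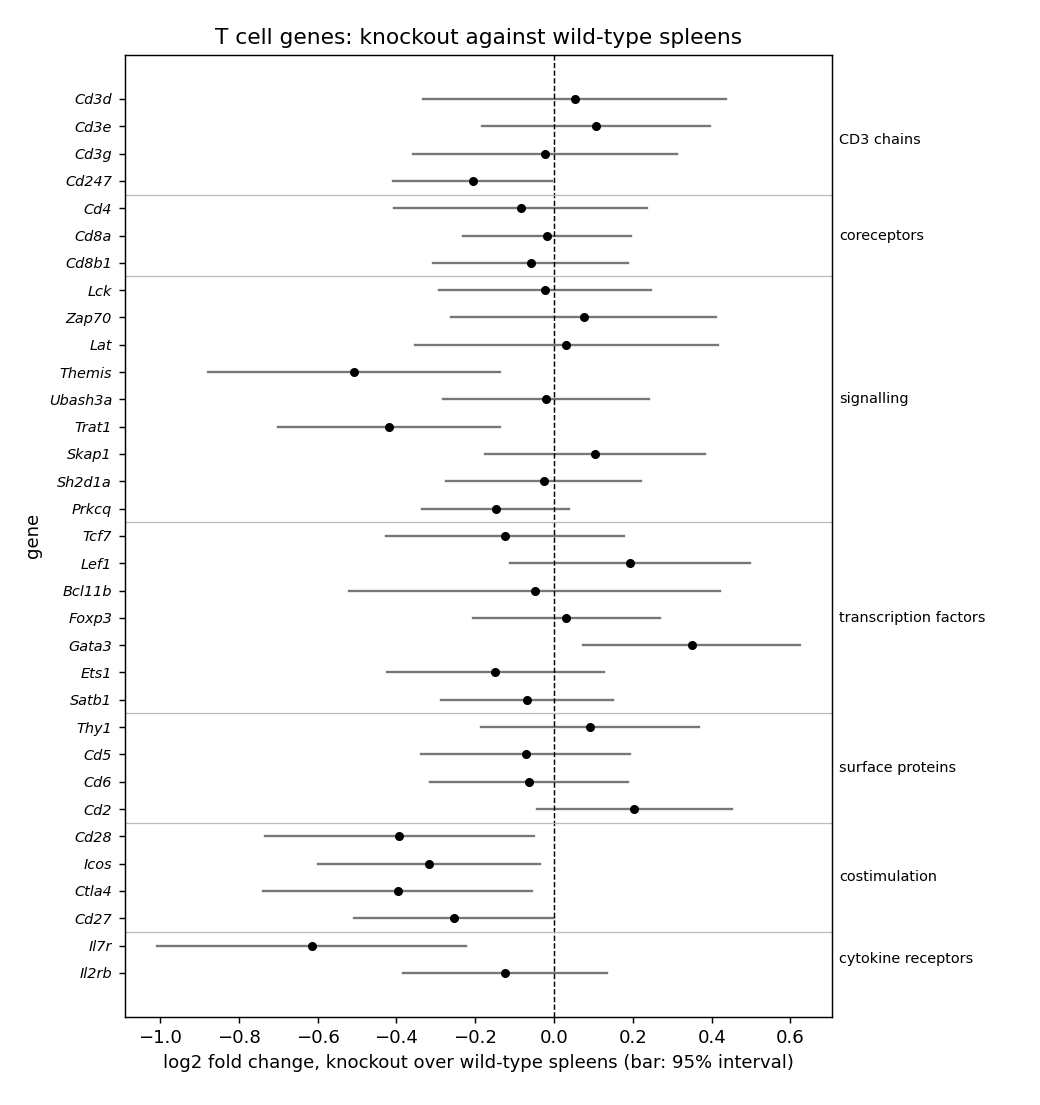
Log2 fold change of each T cell gene in knockout over wild-type spleens (points) with its 95% interval (bars), by role. Most intervals include 0; the points run from -0.62 for Il7r to 0.35 for Gata3, and all 4 costimulation genes lie left of 0.

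GC content moved with these fold changes. It was taken from the longest transcript of each gene. The 11 members with the lowest GC content (36.9 to 44.6%) had a median log2 fold change of -0.32 with 9 negative. The 11 in the middle had -0.05 with 8 negative, and the 11 with the highest (50.9 to 59.6%) -0.02 with 6 negative. Across the 33 genes Spearman's rho of fold change and GC content was 0.39, and across 18821 genes it was 0.36, in both cases across genes of the same libraries. Il7r (GC content 40.5%), Trat1 (39.2%), Themis (38.5%), Cd28 (41.2%), Ctla4 (42.6%) and Icos (43.0%) are all of this low-GC group. The rest of that group lay nearer 0 or above it. They were Sh2d1a (36.9%, log2 fold change -0.03), Cd3g (38.5%, -0.02), Cd247 (44.4%, -0.21), Cd3e (44.5%, 0.11) and Skap1 (44.6%, 0.10). With each library's trend on GC content and length removed, Il7r was at -0.38, Trat1 at -0.10, Themis at -0.20, Cd28 at -0.12, Ctla4 at -0.20 and Icos at -0.09. Sh2d1a was then at 0.26, Cd3g at 0.24, Cd247 at -0.02, Cd3e at 0.29 and Skap1 at 0.25. The list then held 17 positive and 16 negative values, with a median of 0.04 beside 0.12 over all genes. In the main fit these medians were -0.06 and 0.01.

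The summed plain CPM of the 33 genes gives their share of each library. It was 2909, 3339 and 4215 CPM (lowest, median and highest) in wild-type and 1856, 3263 and 3674 CPM in knockout spleens. The lowest sums of all 19 were those of knockout spleens 4 (1856 CPM), 6 (2434 CPM) and 8 (2646 CPM), and the other 6 knockout spleens, at 3126 CPM and above, lay within the wild-type range. Lck, Ets1 and Satb1 made up the largest shares of the summed CPM, which also depend on transcript length, in both genotypes (13.7, 12.5 and 11.8% in wild-type, 14.0, 11.8 and 11.7% in knockout).

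Sums over some marker lists varied with the T cell sum, others less. On log2 TMM-scaled sums over the 19 spleens, Pearson's r was 0.72 for B cell, -0.67 for erythroid and -0.68 for macrophage markers. Without knockout spleens 4, 6 and 9 these were 0.42, -0.51 and -0.47. Other lists had 0.60 (dendritic cell), 0.36 (stroma), 0.30 (plasma cell), 0.04 (neutrophil), -0.002 (mast cell), -0.24 (platelet), -0.31 (natural killer) and -0.37 (pancreas). Knockout spleen 4 had the highest sum over 8 erythroid markers, 31803 CPM, where wild-type spleens had 4648 to 15352 CPM, and its haemoglobin genes alone summed to 236810 CPM. It also had the lowest sum over 10 B cell markers, 2042 CPM, against 3292 to 4100 CPM in wild-type spleens. Knockout spleen 8 had the second highest erythroid sum (21284 CPM). Knockout spleen 6 had an erythroid sum within the wild-type range (12664 CPM) and the highest sum over 8 macrophage markers, 2206 CPM, against 1146 to 1612 CPM in wild-type. The B cell sums of knockout spleens 6 and 8 (3113 and 3217 CPM) also lay below the wild-type range. No B cell, natural killer cell, erythroid or macrophage marker was at 0 in a whole spleen group, and none passed the genotype test (0 of 10, 8, 8 and 8 tested). The part of these markers in the T cell values was not tested. Without knockout spleens 4, 6 and 9 still no T cell gene passed, and 20 of the 33 fold changes were positive and 13 negative. Spleens 4 and 6 held the lowest T cell sums and spleen 8 was kept, so this shift follows in part from which spleens were left out. Left out singly, spleen 4 gave 16 positive and 17 negative, spleen 6 gave 14 and 19, and spleen 9 gave 6 and 27. With plain library sizes in place of TMM factors, 3 were positive and 30 negative, beside a median of -0.10 over all genes.

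**Figure D3:**
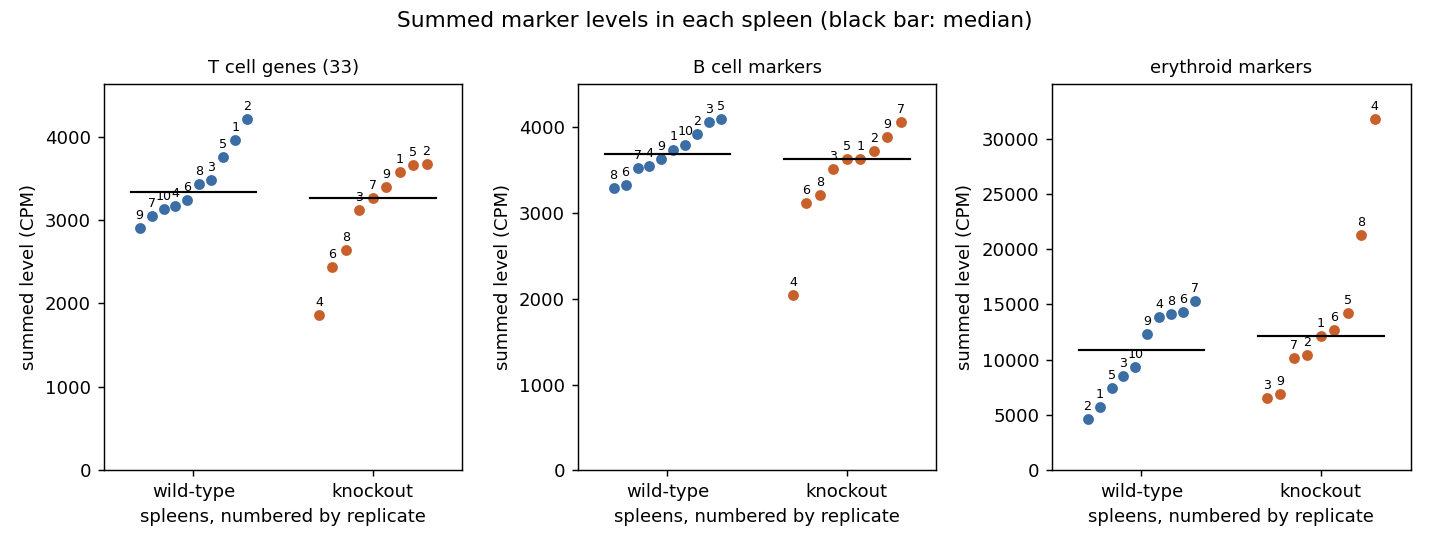
Summed plain CPM of the 33 T cell genes, of 10 B cell markers and of 8 erythroid markers in each spleen, each point numbered by its replicate; black bars are medians. Knockout spleen 4 has the lowest T cell sum (1856 CPM), the lowest B cell sum (2042 CPM) and the highest erythroid sum (31803 CPM).

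Of the constant segments of the receptor chains, a separate list, 0 of 6 tested passed between genotypes. Tcrg-C4, a gamma chain segment, had the smallest p with a log2 change of -0.53 (SE 0.17, adjusted p = 0.128), and Tcrg-C1 was at -0.47 (SE 0.26). The alpha segment Trac was at 0.03 (SE 0.15), and the near-identical beta segments Trbc1 and Trbc2, between which reads may be split, were at -0.10 (SE 0.13) and -0.07 (SE 0.16). Of 30 other genes of T cell receptor signalling 0 passed and 12 had an unadjusted p under 0.05, beside 17.4% of all genes. The smallest p belonged to the diacylglycerol kinase gene Dgka at -0.29 (SE 0.09), the phosphatase gene Ptpn22 at -0.35 (SE 0.11), Tespa1 at -0.35 (SE 0.12), the LCK-inhibiting kinase gene Csk at 0.22 (SE 0.07) and the adaptor gene Sla at -0.29 (SE 0.10). Of 22 genes of T cell subsets 0 passed. Among them were Ikzf2, which encodes Helios, at -0.57 (SE 0.17), the chemokine receptor gene Ccr7 at 0.22 (SE 0.10), the IL-2 receptor alpha gene Il2ra at -0.26 (SE 0.15) and Tbx21, the type 1 helper T cell factor, at 0.23 (SE 0.14).

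The members also varied together across spleens. Over the 19 spleens and 528 pairs of members, Cd3d and Cd3g had the highest correlation of log2 CPM. The 2 genes start 1355 bases apart on opposite strands of chromosome 9, as printed above. Pearson's r was 0.974 and Spearman's rho 0.963 (permutation p = 1e-05 for each, the smallest that 100000 resamples give, adjusted p = 4e-05 over 8 neighbouring pairs and both measures). It was 0.947 within wild-type and 0.989 within knockout spleens, and 0.940 without the 2 spleens farthest from the median of Cd3d. Cd3e, which starts 27841 bases from Cd3d, followed it less closely, with r = 0.671 and rho = 0.696 (permutation p = 0.001 for each, adjusted p = 0.003), 139th of the 528 pairs, and r = 0.538 without the 2 farthest spleens. Cd3e with Cd3g had r = 0.661 and rho = 0.584 (permutation p = 0.001 and 0.01, adjusted p = 0.003 and 0.01), and r = 0.395 without the 2 farthest spleens. High values were not limited to neighbours, since Lat, on chromosome 7, came next after the first pair, with r = 0.960 with Cd3d and 0.954 with Cd3g.

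Among the other neighbouring pairs, Cd5 and Cd6, 91056 bases apart on chromosome 19, had r = 0.882 and rho = 0.867 (permutation p = 1e-05 for each, adjusted p = 4e-05), and r = 0.795 without the 2 farthest spleens. Cd8a and Cd8b1, 50639 bases apart on chromosome 6, had r = 0.816 and rho = 0.747 (permutation p = 3e-05 and 0.0004, adjusted p = 0.0001 and 0.001), and r = 0.835 without the 2 farthest spleens. The 3 pairs among Cd28, Ctla4 and Icos on chromosome 1 had lower values, r = 0.501 to 0.608, rho = 0.412 to 0.625 and r = 0.422 to 0.448 without the 2 farthest spleens. Their adjusted permutation p was 0.009 to 0.03 for r and 0.009 to 0.08 for rho, the highest being that of Cd28 with Icos. Icos with Ctla4 ranked 181st, Cd28 with Ctla4 205th and Cd28 with Icos 252nd of the 528 pairs. Permutation sets a pair against no correlation, while the pair ranked 264th, Cd27 with Lef1, had r = 0.480. The permutation p-values of neighbouring pairs therefore do not set them against other pairs of members. Within wild-type and within knockout spleens r was 0.784 and 0.221 for Cd28 with Ctla4, 0.730 and 0.362 for Icos with Ctla4, and 0.442 and 0.275 for Cd28 with Icos, and these differences were not tested.

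Bcl11b stood apart from the list. It had r = -0.02 with the mean of the other members, while the 32 others ran from 0.34 for Il7r to 0.92 for Cd5. At the lower end of the 528 pairs were Il7r with Cd2 (-0.50), Bcl11b with Cd3e (-0.50), Themis with Cd2 (-0.45) and Cd28 with Cd2 (-0.43). In knockout spleen 9 the level of Cd2 was the highest of all 19 spleens, at 259 CPM, while Themis was the lowest, at 19.9 CPM.

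Among 11658 other genes with a mean of at least 5 CPM, those most like the members' mean over the 19 spleens were the IL-21 receptor gene Il21r (r = 0.936), Sh2d2a, the T cell specific adaptor TSAd (0.916), the receptor segment Trac (0.884), the adaptor gene Lax1 (0.863) and Parm1 (0.856). The most opposite were Sh2d4a (-0.854), Fcna, which encodes ficolin A (-0.853), the small MAF factor gene Mafg (-0.836), Creg1 (-0.829) and Ankrd9 (-0.827). These values describe likeness over libraries that also differ in red pulp markers. None of the 10 passed the genotype test.

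The dendritic cell cultures show what remains of the list where no T cells are expected. Their summed plain CPM of the 33 genes was 107 to 143, against 1856 to 4215 in spleens. The 6 genes that define T cells most closely, the CD3 chains Cd3d, Cd3e and Cd3g and the coreceptors Cd4, Cd8a and Cd8b1, summed to 0.679 to 3.15 CPM in the cultures and to 296 to 650 CPM in spleens, and the 6 receptor constant segments summed to 0.359 CPM or less in every culture and to 164 to 430 CPM in spleens. The cultures carried 8 dendritic cell markers at a sum of 10921 to 14202 CPM. Their B cell marker sum was 1.64 to 10.1 CPM, and their natural killer marker sum was 14.4 to 37.2 CPM.

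**Figure D4:**
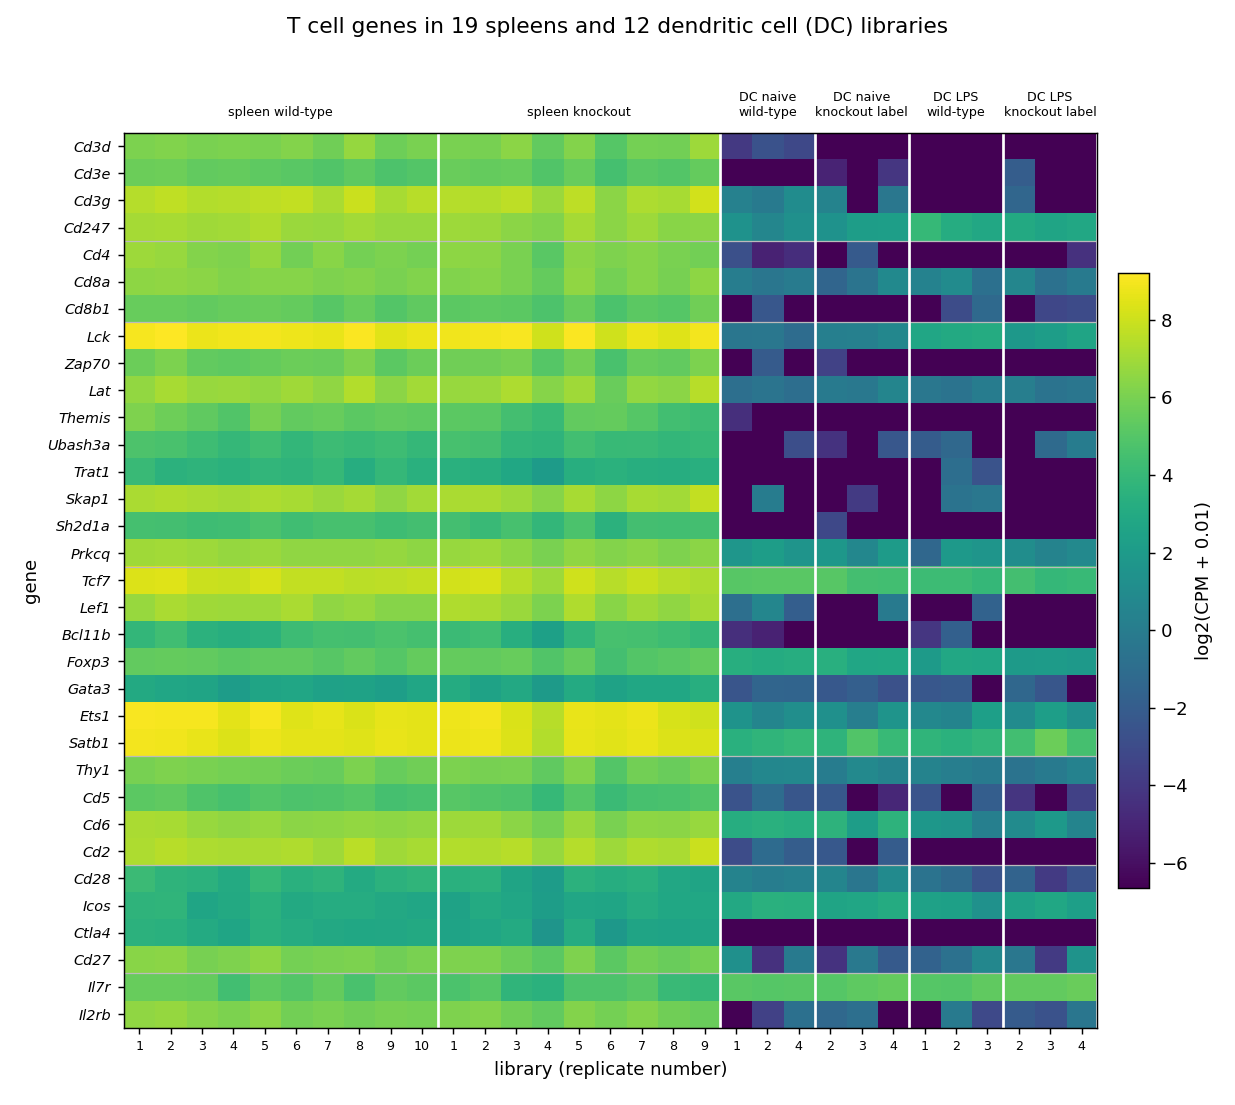
Plain CPM of each T cell gene in all 31 libraries as log2(CPM + 0.01), spleens at left and dendritic cell (DC) cultures at right, genes by role. Ctla4 is at 0 counts in all 12 cultures, while Il7r is as bright in cultures as in spleens.

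The members differed widely in what remained. Ctla4 had 0 counts in all 12 libraries, 13 members had a median of 0, and 15 had counts in every library. A median of at least 1 plain CPM was reached by 11 members. With genotypes pooled, Il7r was at a median of 37.3 plain CPM in cultures and 31.3 in spleens, and Icos at 6.43 and 7.76. These 2 were the members whose culture median exceeded the lowest spleen. By genotype, Il7r ranged from 21.3 to 47.2 plain CPM in wild-type and from 11.3 to 34.8 in knockout spleens. It ranged from 31.4 to 40.5 in wild-type cultures and from 32.8 to 48.2 in cultures labelled knockout. Foxp3 had 6.79 plain CPM in cultures and 41.9 in spleens, Tcf7 had 21.8 and 220, and Satb1 had 15.1 and 384. The spleen median was 21.3 times the culture median for Cd247 and 180 times for Lck. Per kilobase of exon, the highest levels in plain CPM in naive wild-type cultures were Tcf7 at 13.5 CPM per kb and Il7r at 7.33 CPM per kb, whereas in wild-type spleens they were Lck at 161 CPM per kb and Tcf7 at 95.8 CPM per kb.

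The second comparison asked what LPS changed in the cultures, and 23 of the 33 members passed the filter on low counts there. In wild-type cells LPS called 33.9% of all 16965 genes tested (18.1% higher and 15.8% lower), and of the members 3 rose (Lck, Cd247 and Il7r) and 3 fell (Cd6, Tcf7 and Cd3g). In cells labelled knockout it called 28.7% of all genes (15.3% higher and 13.4% lower), and again the members Lck, Cd247 and Il7r rose, while Cd6, Cd28 and Foxp3 fell. The median log2 fold change of the members tested was -0.04 in wild-type and -0.01 in cells labelled knockout, beside -0.03 and -0.02 over all genes. With plain library sizes the medians over all genes moved to -0.44 and -0.35. The members called were then 2 higher and 6 lower in wild-type cells and 1 higher and 3 lower in cells labelled knockout. That fit called 7727 of all 16965 genes in wild-type cells and 6427 in cells labelled knockout. Since a member could pass the filter through 1 group alone, these counts are read only beside the shares of all genes.

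In wild-type cells Lck stood at 0.624, 0.671 and 0.421 CPM before LPS (replicates 1, 2 and 4) and at 7.76, 9.14 and 10.0 CPM after it (replicates 1, 2 and 3). In the paragraphs that follow, replicates keep this order. Under the knockout label, replicates 2, 3 and 4 had 1.02, 1.11 and 1.40 CPM before and 3.96, 4.93 and 7.03 CPM after LPS. Naive and LPS-treated cultures did not overlap in either genotype label. The log2 fold change was 3.97 (SE 0.28, adjusted p = 3.84e-06) in wild-type and 2.18 (SE 0.26, adjusted p = 0.000168) in cells labelled knockout. The log2 difference of the 2 responses was -1.79 (SE 0.37, adjusted p = 0.9999 with edgeR, which called no gene in the interaction, and 0.0178 with DESeq2). Leaving out the 3 libraries labelled knockout that held over 100 Gpr34 counts leaves LPS replicate 2 as the only LPS-treated library under that label. The log2 response in cells labelled knockout was then 1.68, and with 1 treated library that fit cannot decide whether a call holds.

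Cd247 had 2.38, 1.36 and 2.19 CPM in naive wild-type and 18.02, 10.3 and 8.53 CPM in LPS-treated wild-type cultures, a fold change of 2.64 on the log2 scale (SE 0.34, adjusted p = 0.000203). In cells labelled knockout it had 2.37, 4.13 and 4.07 CPM before and 9.01, 6.63 and 8.16 CPM after LPS, a log2 change of 1.17 (SE 0.33, adjusted p = 0.0205). The groups did not overlap under either label. In cells labelled knockout the call was lost without naive replicate 2, LPS replicate 2 or LPS replicate 4 (adjusted p = 0.0540 to 0.0792) without the 3 libraries with Gpr34 counts (1.45, adjusted p = 0.0839), and with plain library sizes (0.84, adjusted p = 0.0656). Pou2f1, with which Cd247 shares exonic bases, had a log2 fold change of -0.11 (SE 0.30) with LPS in wild-type and 0.30 (SE 0.30) in cells labelled knockout, and neither passed.

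Il7r had 31.2, 28.6 and 29.4 CPM in naive wild-type and 38.2, 35.7 and 47.8 CPM in LPS-treated wild-type cultures, a fold change of 0.45 on the log2 scale (SE 0.13, adjusted p = 0.0224). In cells labelled knockout it had 29.3, 34.97 and 37.5 CPM before and 47.9, 46.1 and 54.5 CPM after LPS, a log2 change of 0.55 (SE 0.13, adjusted p = 0.00969). The groups did not overlap, but both calls depended on the scaling. With plain library sizes the log2 fold changes were 0.03 (adjusted p = 0.860) and 0.21 (adjusted p = 0.220), beside medians of -0.44 and -0.35 over all genes. The wild-type call was also lost without naive replicate 1, 2 or 4 or LPS replicate 3 (adjusted p = 0.0624 to 0.107), and the other call without the 3 libraries with Gpr34 counts (0.49, adjusted p = 0.149).

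Cd6, whose product dampens receptor signals in T cells, had 8.18, 9.42 and 8.42 CPM in naive wild-type and 3.82, 3.43 and 1.36 CPM after LPS, a fold change of -1.59 on the log2 scale (SE 0.46, adjusted p = 0.0210). In cells labelled knockout it had 11.0, 4.17 and 10.3 CPM before and 2.26, 3.99 and 1.60 CPM after LPS, a log2 change of -1.69 (SE 0.46, adjusted p = 0.0185). Every LPS-treated culture lay below every naive one of the same label, by a narrow margin in replicate 3 labelled knockout. The wild-type call was lost without naive replicate 2 or LPS replicate 3 (adjusted p = 0.0510 to 0.0630), and the other without naive replicate 2 or 4 or LPS replicate 2 or 4 (adjusted p = 0.0607 to 0.0709).

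The other calls held in 1 label each, and the difference between labels passed for none of them. Tcf7 fell in wild-type cells from 30.0, 31.6 and 31.2 CPM to 21.98, 21.5 and 17.97 CPM, a fold change of -0.59 on the log2 scale (SE 0.20, adjusted p = 0.0409). Its call was lost without any single library of the 6 compared or LPS replicate 4 labelled knockout (adjusted p = 0.0528 to 0.128). Cd3g had 71, 47 and 129 counts in naive wild-type and 0 counts in each LPS-treated wild-type culture, so its level was at least 47.0-fold lower, with 3 counts in the whole group taken as the floor. Under the other label Cd3g had 68, 0 and 32 counts before and 16, 0 and 0 after LPS, so naive and LPS-treated libraries overlapped. The wild-type call of Cd3g (adjusted p = 0.0390) was lost without any single library of the 6 compared or naive replicate 4 labelled knockout (adjusted p = 0.0553 to 0.0884).

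Cd28 had 1.34, 0.664 and 1.67 CPM in naive cells labelled knockout and 0.356, 0.0599 and 0.170 CPM after LPS, a log2 change of -2.65 (SE 0.66, adjusted p = 0.0115). The groups did not overlap, and its counts were 3 to 14 after LPS. Without the 3 libraries with Gpr34 counts its fold change was -2.11 (adjusted p = 0.102). Foxp3 had 9.07, 6.10 and 5.92 CPM in the same naive cells and 4.57, 4.47 and 4.34 CPM after LPS, a fold change of -0.66 on the log2 scale (SE 0.23, adjusted p = 0.0499). It lost its call in 10 of the 12 fits that left out 1 library, all but those without naive replicate 3 labelled knockout or LPS-treated wild-type replicate 1 (adjusted p = 0.0529 to 0.198). Foxp3 shares 12.9% of its exonic bases with Ccdc22 and 5.81% with Ppp1r3f on the opposite strand. Ccdc22 fell in the same comparison with a log2 change of -0.55 (SE 0.18, adjusted p = 0.0435). Without knowledge of strand, reads from the shared bases cannot be told apart, and their part in the Foxp3 value was not tested.

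**Figure D5:**
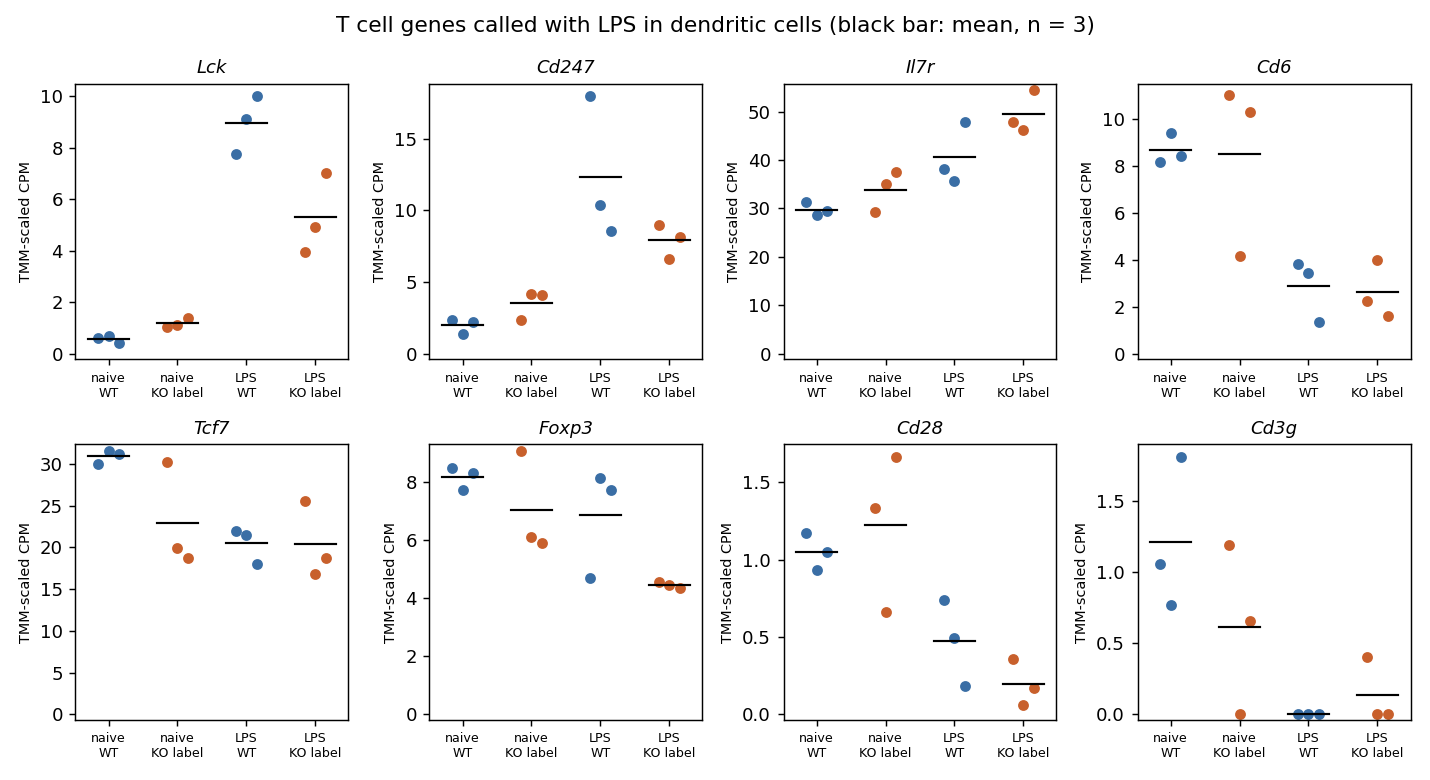
TMM-scaled CPM of the 8 T cell genes called with LPS, in each dendritic cell culture by group; blue is wild-type (WT), orange is labelled knockout (KO label), and black bars are means of 3. Lck and Cd247 stand higher in LPS-treated than naive cultures under both labels, and Cd3g is at 0 in all 3 LPS-treated wild-type cultures.

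Several signalling members were at or near 0 in the cultures. Zap70, the next kinase of the cascade, had counts in 2 of the 12 cultures, Themis and Sh2d1a in 1 each, and Trat1 in 2, both LPS-treated wild-type cultures (27 and 6 counts). Lat had 32 to 63 counts in every culture, and its log2 fold change with LPS in wild-type cells, 0.88 (SE 0.36, adjusted p = 0.0844), did not pass. Cd8a, found on some dendritic cells, had 0.316 to 2.31 CPM over the 12 cultures and its naive and LPS-treated libraries overlapped under both labels. Of the 30 other receptor signalling genes 28 were tested with LPS, and 5 rose and 4 fell in wild-type cells and 4 rose and 5 fell in cells labelled knockout, where 33.9% and 28.7% of all genes were called. Led by the smallest p in wild-type cells, these were the adaptor gene Lcp2 at 1.27 (SE 0.10), Malt1 at 1.63 (SE 0.22), Ptpn22 at -2.34 (SE 0.38), Dgka at 0.56 (SE 0.11) and the phosphatase gene Ptpn6 at 0.48 (SE 0.11). Of the 22 subset genes 17 were tested, with 6 higher and 3 lower in wild-type cells and 7 higher and 2 lower in cells labelled knockout, against the same 33.9% and 28.7% of all genes, led in wild-type cells by Tnfrsf18 at -1.99 (SE 0.15) and the chemokine receptor gene Ccr4 at 3.97 (SE 0.30).

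Between genotype labels no member passed in naive cultures, in LPS-treated cultures or in the interaction, where edgeR called 0 of all 16965 genes in each. An unadjusted p under 0.05 was seen for 3, 4 and 2 of the 23 members, beside 6.71%, 11.3% and 4.00% of all genes. In naive cultures Lck had a fold change of 1.04 on the log2 scale (SE 0.27, adjusted p = 0.617) in cells labelled knockout, and after LPS one of -0.76 (SE 0.25, adjusted p = 0.307). Satb1 after LPS was at 1.23 (SE 0.37, adjusted p = 0.276 with edgeR and 0.0483 with DESeq2), with 15.5, 12.9 and 16.6 CPM in wild-type and 24.0, 55.0 and 26.6 CPM in cells labelled knockout. Its highest value came from LPS replicate 3, a library labelled knockout that holds 117 Gpr34 counts.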

How the data were processed

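The labels describe total RNA of 19 spleens and 12 dendritic cell cultures. The deposited files hold raw counts of reads per Ensembl gene for each library, made by the authors. The submitters' processing notes name TopHat 1.3.3, Bowtie 0.0.9v, SAMtools, bedtools, DESeq and the build mm9, with no roles given. The sources used here do not give the use of strand or the annotation release. Symbols, gene places and GC content were matched by Ensembl ID to GENCODE M21 (GRCm38).

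Spleens and cultures were fitted apart in edgeR 4.0.16 (R 4.3.3): TMM factors, filterByExpr, robust quasi-likelihood F-tests and Benjamini-Hochberg adjustment over all genes tested, with an adjusted p of 0.05 as threshold. Summed levels used plain CPM. Ratios were compared by exact permutation, and neighbouring pairs with 100000 resamples (SciPy 1.17.1). Alternatives were DESeq2 1.42.0, limma 3.58.1 (voom) and those of the closing section. The fits were also run on simulated counts with a spread shared by all genes and no GC trend or outlying library. That simulation does not bear on how calls changed between fits. Total counts limit precision only for the lowest members.

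The members and lists were chosen with earlier results of these data known. Values are given for Cd3e, Cd4, Cd8a, Foxp3 and, in cultures, for members called with LPS. Of the other members reaching 1 CPM in any culture group mean, Icos, Cd8a and Satb1 are given in part. Ets1, Prkcq, Cd27 and Thy1 are not given by culture level. Others named with levels were chosen after their values were seen. Outside the list, up to 5 genes with the smallest p per pathway list and the 5 most and least correlated genes are named.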

Additional observations from a re-analysis of the deposited data

Results flagged for a closer look

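In 3 of 72 groups of spleen libraries tested, most of them 1 gene in 1 genotype, a single library lay far from the rest, where chance flags about 1 in 20. Cd3d in wild-type spleens had its highest level, 105.633 CPM, in replicate 8, where the gap to the next library was 0.575 of the range. Skap1 in knockout spleens was highest in replicate 9, at 232.937 CPM, with a gap of 0.603 of the range. Satb1 in knockout spleens was lowest in replicate 4, at 216.265 CPM, with a gap of 0.503 of the range. That library also held the highest erythroid sum.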

How the results depend on the processing

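In spleens no T cell gene was called with RLE factors, plain library sizes, no filter, limma voom, the replicate block, without haemoglobin genes, without knockout spleens 4, 6 and 9, or in any of the 19 fits that left out 1 spleen. DESeq2 called 2 lower, and removal of the GC content and length trend called 1 higher (Gata3). Over all genes, calls higher and lower were 7 and 183 with plain library sizes, 442 and 431 with DESeq2, 383 and 407 with voom, 2 and 1 with the replicate block, 179 and 118 without knockout spleens 4, 6 and 9, and 918 and 80 with the GC trend removed. Leaving out 1 spleen gave 4 to 524 higher and 4 to 527 lower. The cause was not tested.

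Fold changes near 0 changed sign. With plain library sizes these were Cd3d -0.061, Cd3e -0.0093, Zap70 -0.039, Lat -0.085, Skap1 -0.0071, Foxp3 -0.088 and Thy1 -0.022. With no filter they were Cd8a 0.00049 and Ubash3a 0.0013. With the replicate block they were Cd3d -0.017 and Lat -0.0077. With voom they were Cd3g 0.0012, Cd4 0.087, Cd8a 0.040, Lck 0.081, Ubash3a 0.099, Sh2d1a 0.039, Tcf7 0.055, Satb1 0.020, Cd5 0.065, Cd6 0.062 and Il2rb 0.0038. Without knockout spleens 4, 6 and 9 they were Cd4 0.054, Cd8a 0.021, Lck 0.086, Ubash3a 0.053, Sh2d1a 0.079, Tcf7 0.045, Bcl11b 0.0087, Satb1 0.051, Cd5 0.040 and Cd6 0.035, and the log2 difference of the Cd4 to Cd8a ratio was 0.068. With the GC and length trend removed they were Cd3g 0.24, Cd8a 0.14, Zap70 -0.038, Lat -0.051, Ubash3a 0.29, Sh2d1a 0.26, Prkcq 0.037, Bcl11b 0.21, Ets1 0.070, Satb1 0.23 and Cd6 0.16.

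Leaving out 1 spleen gave ranges that crossed 0 for Cd3d (-0.098 to 0.15), Cd3g (-0.15 to 0.062), Cd8a (-0.073 to 0.029), Lck (-0.077 to 0.044), Zap70 (-0.0045 to 0.16), Lat (-0.092 to 0.13), Ubash3a (-0.080 to 0.042), Skap1 (-0.019 to 0.17), Sh2d1a (-0.079 to 0.050), Bcl11b (-0.13 to 0.057), Foxp3 (-0.015 to 0.11), Satb1 (-0.11 to 0.0057), and the ratios Cd4 to Cd8a (-0.089 to 0.042) and Foxp3 to Cd4 (-0.0062 to 0.17).

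In LPS-treated cultures, the replicate block left 1 member lower in wild-type, without Cd3g and Cd6, and 1 lower in cells labelled knockout, without Foxp3 and Cd6. That fit called 4479 of all genes in wild-type cells and 4228 in cells labelled knockout. Leaving out the 3 libraries labelled knockout that held over 100 Gpr34 counts leaves 1 LPS-treated library under that label, so its calls are not given. With plain library sizes 6 were lower in wild-type cells and 1 higher in cells labelled knockout, where 7727 and 6427 of all genes were called. DESeq2 called 1 member higher between labels after LPS (Satb1) and 1 lower in the interaction (Lck), where it called 372 and 21 of all genes. Leaving out 1 library gave 2 to 3 members higher and 0 to 4 lower in wild-type, and 2 to 4 higher and 1 to 4 lower in cells labelled knockout. Over all genes these fits called 4546 to 6105 in wild-type cells and 3435 to 5608 in cells labelled knockout. The replicate numbers mark no shared animal in the labels. Deviations of same-numbered spleens correlated at -0.08 to 0.30, with 5 of 9 pairs over 0.1, and 3 of 9 spleens correlated best with their own number. No pair of cultures exceeded 0.1.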
